A study of Mus musculus with 7 samples.

Results

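The 9 genes of RNA polymerase II pausing were described by the accessibility of their chromatin in mouse liver: Supt5, Supt4a, Nelfa, Nelfb, Nelfcd, Nelfe, Cdk9, Ccnt1 and Hexim1. Of the 55680 accessible regions in the deposited table, the 27 that overlapped the body of 1 of these 9 genes, or the 10 kb on either side of it, were taken (GENCODE M21 annotation, GRCm38). Of the 27 regions, 10 lay within 200 bp of an annotated transcription start site (TSS) of a member and are called its promoter regions. They are 10 of 15422 promoter regions in all.

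The study asked how chromatin accessibility changes with age. Accessible DNA was measured by ATAC-seq, in which the transposase Tn5 inserts sequencing adapters into exposed chromatin of isolated nuclei. The young group held 3 liver libraries from C57BL/6N mice aged 3 months, and the aged group held 4 liver libraries from C57BL/6N mice aged 18 months, with no treatment or engineered allele named in the labels for either group. The study's methods name 4 aged biological replicates, while the deposited description traces the aged libraries to 3 animals, 1 of them sampled in different lobules. Which libraries share an animal is not said, so p-values over the 4 aged libraries may rest on fewer animals. Counts in regions summed to between 4474652 and 25461110 per library, and levels are given as CPM, counts scaled by library size after TMM normalisation.

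Soon after initiation, RNA polymerase II halts just downstream of many promoters. The DSIF complex, made of Supt4a and Supt5, and the NELF complex, made of Nelfa, Nelfb, Nelfcd and Nelfe, hold it there. Release requires P-TEFb, the kinase Cdk9 with its cyclin Ccnt1, which phosphorylates DSIF, NELF and the polymerase, while Hexim1 together with the 7SK RNA keeps P-TEFb inactive.

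The RefSeq promoter table of GRCm38.p6 held a window of 300 bases, from 250 bases before to 50 bases after the gene start, for 7 of the 9 genes. Nelfcd and Nelfe had no entry. Shown here are the windows of Cdk9, Supt5 and Nelfb, where every aged library lay above every young one, and of Hexim1, whose product restrains Cdk9. Capitals mark the searched motifs named in the next paragraph, read on both strands, and each line runs 5′ to 3′ on the gene's strand. The windows lie at chr2:32712735-32713034 (minus strand), chr7:28338670-28338969 (minus), chr2:25211440-25211739 (minus) and chr11:103116075-103116374 (plus).
Cdk9: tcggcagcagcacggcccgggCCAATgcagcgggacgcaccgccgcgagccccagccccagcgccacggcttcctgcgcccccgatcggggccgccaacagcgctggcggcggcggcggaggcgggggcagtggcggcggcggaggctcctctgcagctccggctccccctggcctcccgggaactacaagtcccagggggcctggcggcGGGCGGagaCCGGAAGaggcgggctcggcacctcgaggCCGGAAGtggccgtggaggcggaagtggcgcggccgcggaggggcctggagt
Supt5: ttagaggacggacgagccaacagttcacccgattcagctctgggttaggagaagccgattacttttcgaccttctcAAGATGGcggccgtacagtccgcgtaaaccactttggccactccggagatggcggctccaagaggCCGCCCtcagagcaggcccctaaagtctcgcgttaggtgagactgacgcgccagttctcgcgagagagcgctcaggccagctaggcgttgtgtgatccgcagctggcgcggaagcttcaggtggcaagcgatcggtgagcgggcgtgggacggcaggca
Nelfb: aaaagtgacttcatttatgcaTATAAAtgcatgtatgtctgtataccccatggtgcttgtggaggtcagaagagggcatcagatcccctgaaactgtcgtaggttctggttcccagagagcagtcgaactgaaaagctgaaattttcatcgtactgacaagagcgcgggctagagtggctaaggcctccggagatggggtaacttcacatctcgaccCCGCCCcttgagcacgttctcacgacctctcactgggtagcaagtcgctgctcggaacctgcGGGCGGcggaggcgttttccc
Hexim1: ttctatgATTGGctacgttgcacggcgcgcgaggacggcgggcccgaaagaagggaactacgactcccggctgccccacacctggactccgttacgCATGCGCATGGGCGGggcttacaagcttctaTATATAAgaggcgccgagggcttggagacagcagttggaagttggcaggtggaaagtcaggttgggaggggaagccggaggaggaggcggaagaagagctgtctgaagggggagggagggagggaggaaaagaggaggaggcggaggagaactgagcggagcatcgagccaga

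The 7 windows were rich in CpG, with 16 to 39 CpG dinucleotides each against a median of 7 over the 32851 windows of the table, and their GC content was 53.0% to 78.3%. The GC box GGGCGG, the core of the Sp1 motif, stood in 7 of 7 windows and in 35.7% of all windows. The ETS motif CCGGAAG stood in those of Cdk9, Supt4a and Ccnt1 and in 8.86% of all windows. Cdk9 carried 2 copies, beginning at positions -31 and -2 from the annotated start. The YY1 motif AAGATGG was found for Supt5, Supt4a and Nelfa and in 6.34% of all windows. Hexim1 held the TATA-type sequence TATATAA at position -123, present in 3.24% of all windows. It also held the NRF1 motif CATGCGC, present in 3.91%, on both strands in copies that overlap each other and run into a GC box. Nelfb held TATAAA, present in 13.6% of all windows, well upstream at position -229 and outside the accessible region, which ends at 25211666. CCAAT stood in the windows of Cdk9 and Hexim1 and in 37.4% of all windows, and the E-box CACGTG in 0 of 7 and in 7.15%. The motifs were chosen after these windows had been read, and the windows over all genes hold fewer CpG at the median. The shares over all windows are therefore no like background, and no enrichment is drawn from them. These matches describe letters only, and binding was not measured.

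Promoters of all 9 genes were accessible in every library, with 72 to 3805 counts in the region used for each gene. Per kilobase of region, the mean over the 7 libraries was highest at Cdk9, at 76.5 ± 13.6 CPM per kb (SD, n = 7), above 98.7% of all promoter regions. The 5′ region of Nelfe followed at 47.2 ± 4.62 CPM per kb and Hexim1 at 41.6 ± 5.36. In 7 of 7 libraries Cdk9 lay above Nelfe and Nelfe above Hexim1. Nelfa at 35.0 ± 3.28 and Supt5 at 33.7 ± 3.95 CPM per kb did not differ beyond their spread, since Nelfa was higher in 4 of 7 libraries. Ccnt1 stood at 29.4 ± 2.45 CPM per kb, below Supt5 in 5 of 7 libraries. Supt4a at 23.5 ± 2.69 was below Ccnt1 in 7 of 7 libraries. The lowest levels were those of Nelfcd at 18.9 ± 2.80 and Nelfb at 18.0 ± 1.94 CPM per kb, whose ranges overlapped, and 42.7% of all promoter regions lay below Nelfb. The kinase Cdk9 thus stood well above its cyclin Ccnt1, and the NELF subunits ranged from the 5′ region of Nelfe near the top to Nelfcd and Nelfb at the bottom. In aged liver alone the mean was lower at Nelfcd (18.3 CPM per kb) than at Nelfb (19.4).

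Between the ages, 0 of the 10 promoter regions passed the test in edgeR (quasi-likelihood test, Benjamini-Hochberg adjusted p under 0.05 over all 55680 regions), while 6.54% of all promoter regions and 5.74% of all regions did. At an unadjusted p under 0.05 the count was 4 of 10, against 32.1% of all promoter regions. DESeq2 called 1 of 10, against 12.2%, and limma voom 1 of 10, against 10.8%, in both cases Cdk9. Every aged library lay above every young one at 3 of 10 promoter regions (Supt5, Nelfb and Cdk9), against 20.4% of all promoter regions, and below every young one at 1 of 10 (an internal region of Nelfe), against 8.88%. Taking 1 region per gene, 7 of 9 log2 fold changes were positive, with a median of 0.20, while 61.1% of all promoter regions were positive with a median of 0.09. In whole tissue, a different share of cells of a type and a different accessibility per cell cannot be told apart.

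**Figure D1:**
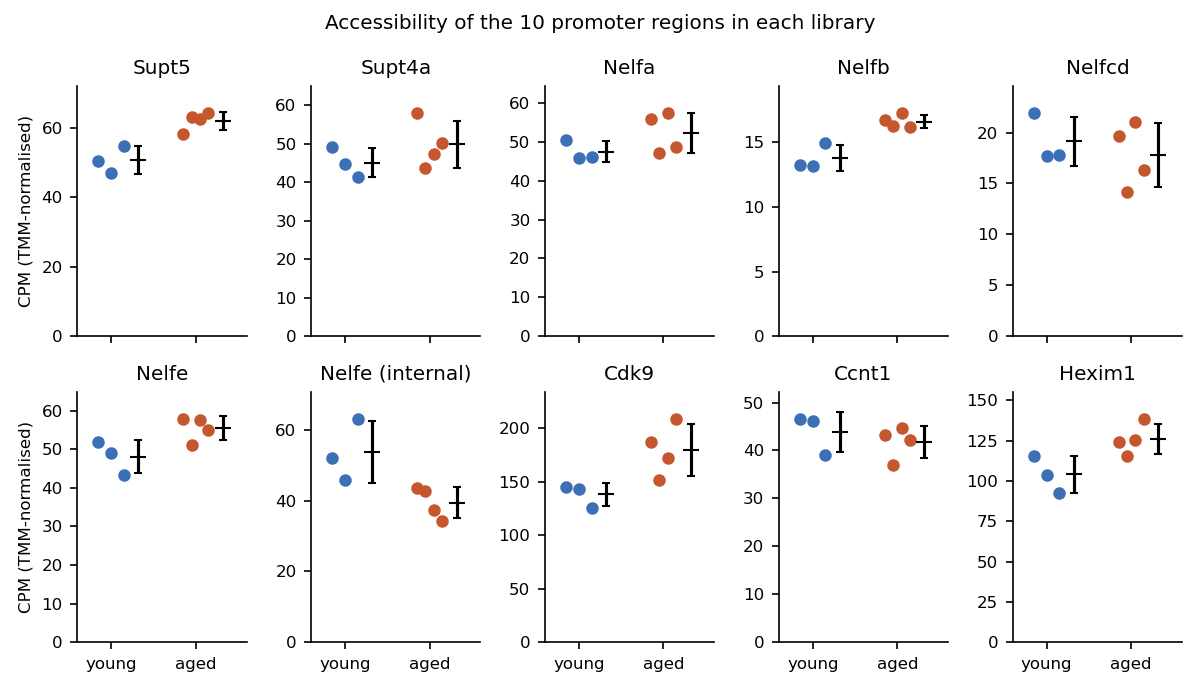
Accessibility (CPM, TMM-normalised) of the 10 promoter regions in each library, with young libraries (3 months, n = 3) in blue and aged libraries (18 months, n = 4) in orange; black marks are means with SD, and each panel starts at 0. The aged points lie above all young points at Supt5, Nelfb and Cdk9, and below them at the internal region of Nelfe.

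Supt5, the large subunit of DSIF, was measured at its promoter region (chr7:28338171-28339871) at 50.4, 47.1 and 54.9 CPM in young replicates 1 to 3. The aged replicates 1 to 4 stood at 58.3, 63.2, 62.6 and 64.4 CPM. All aged libraries were higher, with no overlap. Aged over young gave a log2 fold change of 0.29 (standard error 0.11, 95% interval 0.06 to 0.52), which did not pass in edgeR (adjusted p = 0.111). Its partner Supt4a (chr11:87735814-87737846), the small zinc-finger subunit, had 49.1, 44.6 and 41.4 CPM in young and 58.0, 43.5, 47.4 and 50.1 CPM in aged liver. The groups overlapped, with aged replicate 1 highest and young replicate 3 lowest. The log2 fold change at Supt4a was 0.15 (95% interval -0.12 to 0.41, adjusted p in edgeR 0.489), and without aged replicate 1 it was 0.06 (edgeR adjusted p = 0.830).

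Among the NELF subunits, Nelfa, which contacts the polymerase, had 50.5, 45.8 and 46.0 CPM in young and 55.9, 47.1, 57.4 and 48.7 CPM in aged liver (chr5:33935527-33936963). Aged replicates 1 and 3 stood above the young libraries and aged replicates 2 and 4 among them. Nelfa gave a log2 fold change of 0.14 (95% interval -0.11 to 0.38, edgeR adjusted p = 0.485). Nelfb had the weakest promoter of the group (chr2:25210810-25211666), with 13.2, 13.2 and 14.96 CPM in young and 16.7, 16.3, 17.3 and 16.2 CPM in aged liver. The ages did not overlap there, yet only 74 to 348 counts lay behind each value. Its log2 fold change was 0.27 (95% interval -0.05 to 0.60, edgeR adjusted p = 0.283). Nelfcd, the subunit whose gene yields the NELF-C and NELF-D forms, had 21.9, 17.7 and 17.8 CPM in young and 19.7, 14.1, 21.01 and 16.3 CPM in aged liver (chr2:174415524-174416497). The groups overlapped widely, with a log2 fold change of -0.11 (95% interval -0.47 to 0.26, edgeR adjusted p = 0.742), which became 0.0083 without young replicate 1 and -0.02 without aged replicate 2.

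Nelfe, the RNA-binding subunit of NELF, had 2 promoter regions. The first (chr17:34849814-34850921) spans the 5′ end of the gene, holds the starts of 4 protein-coding Nelfe transcripts and is shared with the divergent gene Skiv2l. It had 51.7, 49.0 and 43.4 CPM in young and 57.8, 51.2, 57.7 and 54.9 CPM in aged liver, and aged replicate 2 fell among the young values. This 5′ region gave a log2 fold change of 0.20 (95% interval -0.04 to 0.44, edgeR adjusted p = 0.279). The second region (chr17:34853325-34855939) is centred 4241 bp inside the gene, over coding exons, and holds the starts of 2 retained-intron transcripts and of 0 protein-coding ones. There the young libraries had 52.1, 45.8 and 63.0 CPM and the aged ones 43.5, 42.6, 37.4 and 34.4 CPM. All aged libraries were lower, with a log2 fold change of -0.43 (standard error 0.13, 95% interval -0.72 to -0.14), which did not pass in edgeR (adjusted p = 0.0703).

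The ratio of raw counts in the internal region over the 5′ region of Nelfe does not change when each library is scaled by 1 factor. Offsets that vary between regions, such as those on GC content or mean abundance, can change it. The raw ratio was 1.01, 0.934 and 1.45 in young replicates 1 to 3 and 0.752, 0.831, 0.648 and 0.626 in aged replicates 1 to 4. Young libraries averaged 1.131 ± 0.279 (SD, n = 3) against 0.714 ± 0.0954 (SD, n = 4) for the aged ones, and all aged ratios lay below all young ones. This ratio was chosen after the values were seen and was given no test, and no share over other pairs of regions stands beside it. Both regions enter it, since the 5′ region averaged higher in aged liver and the internal region in young liver. Under total-count scaling the internal region passed (log2 fold change -0.55, adjusted p = 0.0336), where 5.23% of all promoter regions did, and it passed with offsets on mean abundance (-0.63, adjusted p = 0.0470), where 0.823% did. It was the only one of the 10 promoter regions to pass under either of these settings, and over 23 alternatives its adjusted p ran from 0.0336 to 0.192.

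**Figure D2:**
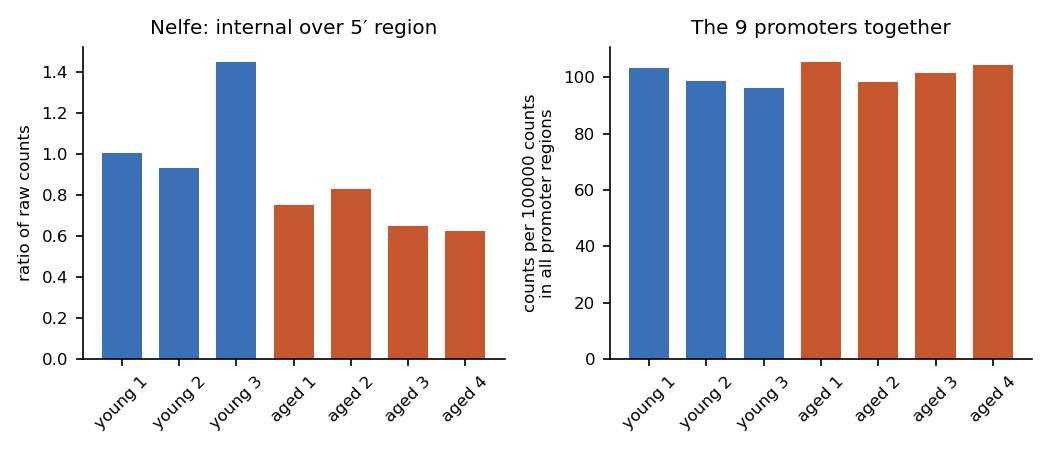
Left, the ratio of raw counts in the internal over the 5′ promoter region of Nelfe in each library; right, counts in the 9 promoter regions per 100000 counts in all promoter regions of the same library. The ratio is at most 0.831 in the aged and at least 0.934 in the young libraries, while the share on the right overlaps between ages.

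Cdk9, the kinase of P-TEFb, had the highest promoter level of the 9 genes. Its promoter region (chr2:32712187-32714305) also covers the starts of the microRNA genes Mir2861 and Mir3960, and its signal cannot be divided among them. Young replicates had 145, 144 and 126 CPM and aged replicates 187, 152, 172 and 209 CPM. The aged values lay above all young ones, closest between aged replicate 2 and young replicate 1. Cdk9 thus had a log2 fold change of 0.38 (standard error 0.13, 95% interval 0.11 to 0.65), which did not pass in edgeR (adjusted p = 0.0818). It passed in DESeq2 (adjusted p = 0.0366) and limma voom (adjusted p = 0.0457), and in edgeR without aged replicate 2 (log2 fold change 0.45, adjusted p = 0.0453), and over 23 alternative settings its adjusted p ran from 0.0174 to 0.957. With offsets fitted on mean abundance the difference at Cdk9 was -0.01 (adjusted p = 0.957).

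Ccnt1, the cyclin that activates Cdk9, had a slightly lower mean in aged than in young liver. Its region (chr15:98567162-98568615) holds the RefSeq start and starts of 4 GENCODE transcripts, is centred 3034 bp inside the gene as GENCODE draws it, and is shared with the antisense gene 9330020H09Rik. It had 46.6, 46.1 and 39.0 CPM in young and 43.2, 37.1, 44.6 and 42.1 CPM in aged liver. These values overlapped, with a log2 fold change of -0.08 (95% interval -0.33 to 0.17, edgeR adjusted p = 0.731) that ran from -0.14 without young replicate 3 to -0.03 without aged replicate 2. Whether Cdk9 and Ccnt1 differed in their change was not tested. Hexim1, the inhibitor, had 115.6, 104 and 92.7 CPM in young and 124, 115.5, 126 and 138 CPM in aged liver (chr11:103115122-103117923). The overlap came from aged replicate 2, which stood just below young replicate 1. The log2 fold change at Hexim1 was 0.27 (standard error 0.12, 95% interval 0.03 to 0.52, edgeR adjusted p = 0.158).

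With offsets fitted on the GC content of regions, Supt5 (adjusted p = 0.0453), Cdk9 (adjusted p = 0.0174) and Hexim1 (adjusted p = 0.0369) passed in edgeR, 3 of 10 promoter regions against 16.5% of all promoter regions. Over 23 alternatives the adjusted p ran from 0.0453 to 0.847 at Supt5 and from 0.0369 to 0.745 at Hexim1. The promoter regions of the 9 genes had a median GC content of 58.5%, against 57.2% over all promoter regions. With offsets fitted on mean abundance the median over the 9 genes became -0.06, with 2 of 9 positive (Supt5 at 0.05 and Nelfb at 0.27), beside a median of -0.03 over all promoter regions. With total counts it was 0.08, beside -0.03 over all promoter regions, and 7 of 9 were positive. Across all promoter regions the fold change grew with the level, here described over 4 bins of equal size by mean log2 CPM. In the top bin, from 5.69 upward, the median log2 fold change was 0.29 and 96.1% were positive. Supt5, the 5′ region of Nelfe, Cdk9 and Hexim1 belong to that bin, and with the offsets their changes were 0.05, -0.02, -0.01 and -0.07. In the next bin, which holds Supt4a, Nelfa and Ccnt1, the median was 0.16 and 82.4% were positive. Nelfb and Nelfcd belong to the bin below, with a median of -0.02 and 46.1% positive. The origin of this trend was not tested.

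**Figure D3:**
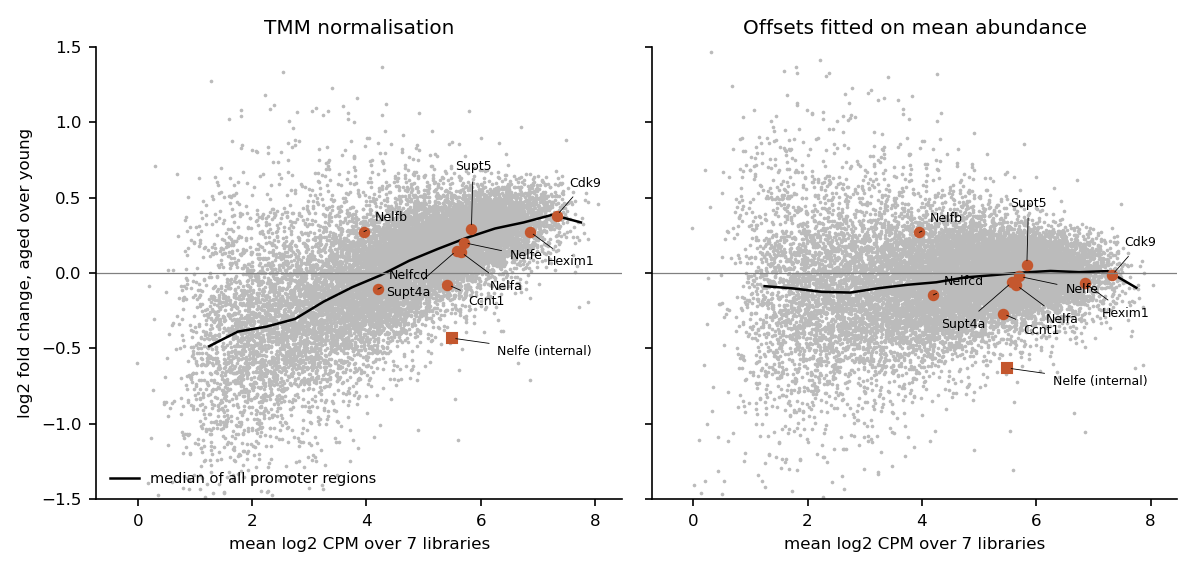
Log2 fold change of aged over young against mean log2 CPM for all 15422 promoter regions (grey; values beyond the y axis are not drawn), with the running median in steps of log2 CPM as a black line and the regions of the 9 genes in orange (square, the internal region of Nelfe). With TMM normalisation the median climbs with abundance and 7 of 9 genes lie above 0; with offsets fitted on abundance 2 of 9 do, and the internal region of Nelfe falls to -0.63.

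As a share of all counts in promoter regions, the 9 promoter regions took 103, 98.8 and 96.2 per 100000 counts in young replicates 1 to 3 and 106, 98.2, 101 and 104 per 100000 in aged replicates 1 to 4. The means were 99.4 ± 3.58 (SD, n = 3) and 102 ± 3.25 (SD, n = 4), and the groups overlapped. As a pooled share of promoter counts, the 9 regions therefore differed between ages by less than the spread between libraries. Cdk9 and Hexim1 weigh most in this sum, since their regions hold the most counts.

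The other 17 regions near the 9 genes comprised 6 promoters of neighbouring genes and 11 regions outside promoters. In edgeR 0 of the 27 regions in the windows passed (5.74% of all regions did), and 8 of 27 had an unadjusted p under 0.05, against 24.6% of all regions. DESeq2 called 2 of 27, Cdk9 and the Kansl2 promoter, against 8.42% of all regions, and limma voom called 1 of 27, against 8.23%. Each of the 27 regions aligned to a single place on the assembled chromosomes over at least 80% of its length. Of the 11 regions outside promoters, 8 had a negative log2 fold change, with a median of -0.06 beside -0.09 over all regions outside promoters. An unadjusted p under 0.05 was found for 3 of 11, against 21.7% of regions outside promoters, and every aged library lay below every young one at 3 of 11, against 12.7%.

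Of the 5 largest log2 fold changes among these other regions, 4 were negative and 1, at the Kansl2 promoter, was positive. Within Nelfcd, a short region over a coding exon (chr2:174426739-174427062) had 4.44, 2.65 and 2.30 CPM in young and 1.14, 1.18, 2.10 and 2.29 CPM in aged liver. The groups just missed each other, on 6 to 70 counts per library. On the log2 scale aged over young came to -0.93 (95% interval -1.73 to -0.14, edgeR adjusted p = 0.138). Without young replicate 1 it came to -0.60 (edgeR adjusted p = 0.481), and with offsets on mean abundance to -0.53 (adjusted p = 0.525). Over a coding exon and UTR of Supt5, 16540 bp into the gene (chr7:28321956-28322456), the young libraries had 7.41, 7.86 and 4.44 CPM and aged replicates 1 to 3 had 2.46, 2.75 and 2.80 CPM. Aged replicate 4, at 7.76 CPM, stood with the young libraries. Over all 7 libraries its log2 fold change was -0.74 (95% interval -1.54 to 0.05, edgeR adjusted p = 0.234). Without aged replicate 4 it became -1.35 and passed (edgeR adjusted p = 0.0145), so this 1 library decides the call. Over 23 alternatives the adjusted p at this exon ran from 0.0145 to 0.558.

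Upstream of Ccnt1, an intronic region of 4930415O20Rik centred at -9336 bp from the Ccnt1 start (chr15:98579968-98580550) had 6.02, 6.65 and 7.73 CPM in young and 3.87, 5.10, 3.74 and 3.82 CPM in aged liver. All aged values were lower, with a log2 fold change of -0.72 (95% interval -1.22 to -0.21, edgeR adjusted p = 0.0824). Beyond the 3′ end of Ccnt1, the promoter of Kansl2, which encodes a subunit of the NSL acetyltransferase complex (chr15:98532600-98534705), had 74.0, 75.8 and 60.7 CPM in young and 86.5, 84.1, 101 and 92.7 CPM in aged liver. Every aged library was higher there. Kansl2 gave a log2 fold change of 0.37 (95% interval 0.12 to 0.62), with an adjusted p of 0.0744 in edgeR, 0.0387 in DESeq2 and 0.0220 to 0.732 over 23 alternatives. With offsets on mean abundance the value at Kansl2 was 0.08 (adjusted p = 0.732).

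Next to Cdk9 lies Fpgs, which encodes folylpolyglutamate synthase. The Fpgs promoter (chr2:32700561-32704763) had 97.3, 96.5 and 96.7 CPM in young and 103, 98.5, 126 and 121 CPM in aged liver, and the ages did not overlap. Its log2 fold change was 0.21 (95% interval -0.04 to 0.46, edgeR adjusted p = 0.278), and -0.13 with offsets on mean abundance (adjusted p = 0.552). An intron of Fpgs a short way downstream (chr2:32699892-32700438) had 12.2, 13.0 and 13.8 CPM in young and 9.49, 8.43, 10.3 and 10.2 CPM in aged liver. Here too the ages did not overlap, but with the aged libraries lower. The log2 fold change in the intron was -0.44 (95% interval -0.81 to -0.07, edgeR adjusted p = 0.138). In the remaining 11 regions near the 9 genes the ages overlapped.

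**Figure D4:**
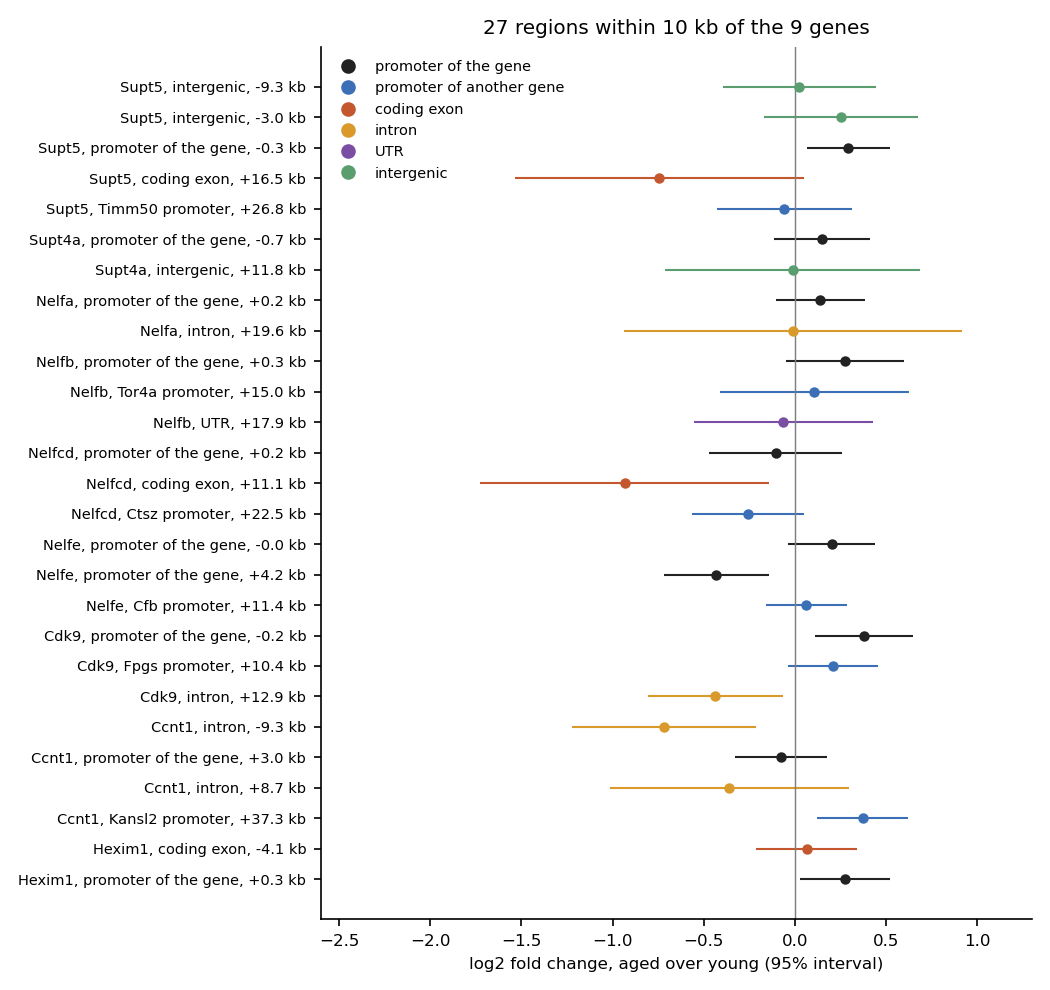
Log2 fold change of aged over young with its 95% interval for the 27 regions within 10 kb of the 9 genes, labelled by gene, by what the region overlaps and by the distance of its midpoint from the gene's 5′ end (kb), and coloured by class. Promoter regions of the genes (black) are mostly right of 0 apart from Nelfcd, Ccnt1 and the internal region of Nelfe at -0.43, while the exon regions of Nelfcd and Supt5 reach -0.93 and -0.74.

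A list of 53 other genes of pause release and elongation, among them the super elongation complex, PAF1, 7SK-associated and Integrator genes, had a promoter region for 52, with Supt4b as the exception. In edgeR 1 of 52 passed and was higher in aged liver (Eaf2), against 6.54% of all promoter regions, and 17 of 52 had an unadjusted p under 0.05, against 32.1%. DESeq2 called 7 of 52, against 12.2%, and limma voom 3 of 52, against 10.8%. Of the 52 log2 fold changes 43 were positive, with a median of 0.23, beside 61.1% positive and a median of 0.09 over all promoter regions, and every aged library lay above every young one at 13 of 52, against 20.4%. With offsets on mean abundance 28 of 52 were positive, with a median of 0.0024.

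Eaf2, which binds and stimulates the elongation factor Ell, had 67.5, 65.0 and 63.8 CPM in young and 80.5, 81.2, 86.6 and 90.6 CPM in aged liver. The gap between the ages was wide compared with the spread within them. Its log2 fold change was 0.37 (95% interval 0.15 to 0.59, edgeR adjusted p = 0.0493). Leaving out any 1 of the 7 libraries took the adjusted p in edgeR to between 0.0533 and 0.149, and offsets on mean abundance took the change to 0.09 (adjusted p = 0.669). Over 23 alternatives the adjusted p at Eaf2 ran from 0.0149 to 0.669.

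Ell itself, an elongation factor of the super elongation complex, had the largest fold change of the list in edgeR with TMM. Under offsets on mean abundance Larp7 and Eloc stood above it. The Ell promoter had 159, 143 and 108 CPM in young and 185, 173, 190 and 230 CPM in aged liver, without overlap. Ell gave a log2 fold change of 0.51 (95% interval 0.20 to 0.82, edgeR adjusted p = 0.0520), and it passed in DESeq2 (adjusted p = 0.0154), with a range of 0.0138 to 0.571 over 23 alternatives. Without aged replicate 2 Ell passed in edgeR (adjusted p = 0.0473), and with offsets on mean abundance it differed by 0.12 (adjusted p = 0.571). Larp7, which binds the 7SK RNA, differed by 0.50 (95% interval 0.08 to 0.92, edgeR adjusted p = 0.136), with young replicate 3 far below the other young libraries at 23.3 CPM. Its ages overlapped, and without young replicate 3 the difference was 0.28 (edgeR adjusted p = 0.277). Eloc, a subunit of elongin, differed by 0.43 (95% interval 0.14 to 0.71, edgeR adjusted p = 0.0689). Eloc passed without aged replicate 2 (0.52, edgeR adjusted p = 0.0349), while offsets on mean abundance gave 0.18 (adjusted p = 0.450).

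The lowest values of the list belonged to Elob, Ncbp2 and Supt16. Elob, the elongin partner of Eloc, differed by -0.28 (95% interval -0.59 to 0.04, edgeR adjusted p = 0.264), with every aged library below every young one, and by -0.18 without young replicate 1 or without aged replicate 2. Ncbp2, a subunit of the nuclear cap-binding complex, differed by -0.27 (95% interval -0.62 to 0.08, edgeR adjusted p = 0.323). Supt16, a subunit of the histone chaperone FACT, differed by -0.19 (95% interval -0.53 to 0.15, edgeR adjusted p = 0.485), with -0.32 without aged replicate 3 and -0.12 without aged replicate 4. For Ncbp2 and Supt16 the ages overlapped.

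Among genes outside these lists, the promoter regions whose log2 CPM over the 7 libraries followed the mean of the 9 genes most closely were those of Otud4 (Pearson's r = 0.992), Coa7 (r = 0.988) and Fam98a (r = 0.987). These values describe 7 libraries that share their depth and scaling and carry no test. Their own log2 fold changes were 0.25, 0.25 and 0.32, and in edgeR their adjusted p-values were 0.188, 0.204 and 0.147.

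Markers were read as a check of the labelled tissue. All 8 hepatocyte markers had a promoter region, and their summed level was 690 to 753 CPM in young and 823 to 961 CPM in aged liver. Of the other cell types a liver piece can hold, 1 of 6 leukocyte markers had a promoter region (8.995 to 9.54 CPM in young, 6.77 to 8.70 in aged) and 1 of 4 Kupffer cell markers (2.22 to 2.65 and 0.588 to 2.80). For endothelial cells 3 of 4 had one (57.2 to 62.0 and 44.5 to 75.1), for stellate cells 3 of 4 (26.6 to 29.1 and 16.1 to 23.5) and for cholangiocytes 2 of 4 (41.7 to 49.5 and 36.7 to 54.3). The hepatocyte sum was higher, and the leukocyte and stellate sums lower, in every aged library than in every young one, where single promoter regions were so at 20.4% (higher) and 8.88% (lower). Those shares are no like measure for the hepatocyte and stellate sums, which run over 8 and 3 markers, while the leukocyte value is 1 region. In edgeR 1 of the 8 hepatocyte markers passed, and 0 of the leukocyte and stellate ones. The markers differed in level, with means of 36.6 to 235 CPM for the hepatocyte markers (median log2 fold change 0.27) against 8.33 CPM for the leukocyte marker and 3.15 to 14.7 CPM for the stellate ones (medians -0.27 and -0.36). Medians were also negative for the Kupffer cell (-0.66), endothelial (-0.35) and cholangiocyte markers (-0.41), whose sums overlapped between ages. Markers without a promoter region give no value here. The part of these cell types in the values of the 9 genes was not tested.

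**Figure D5:**
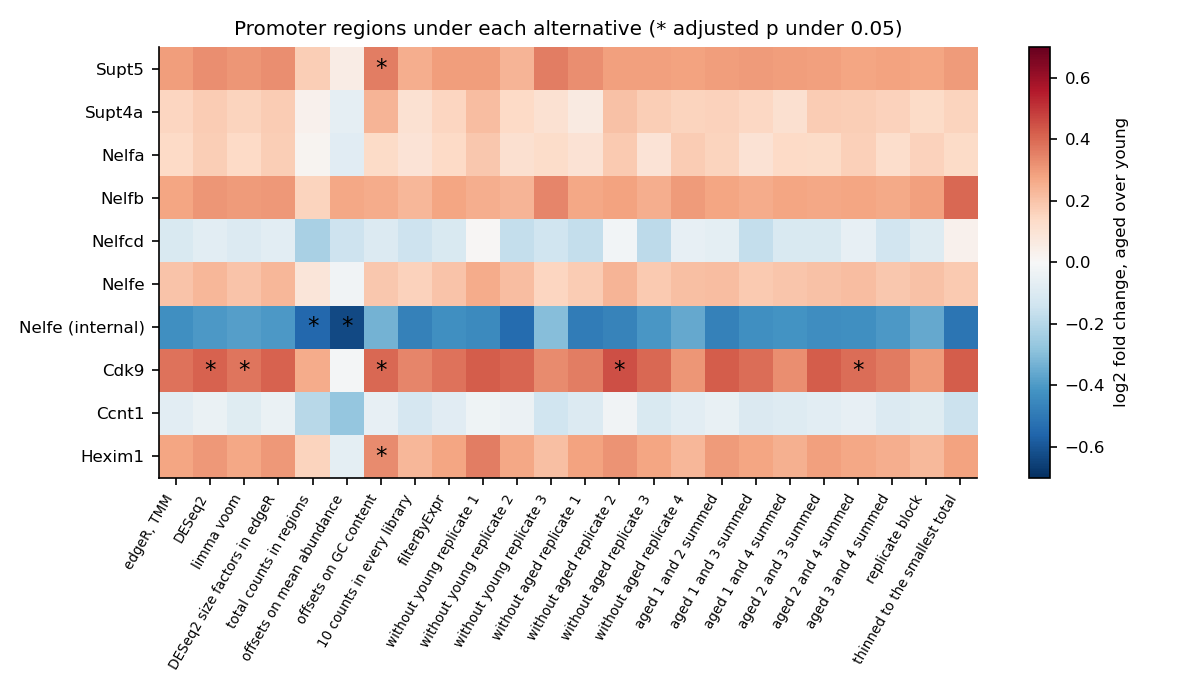
Log2 fold change of aged over young (colour) for the 10 promoter regions under edgeR with TMM and 23 alternative settings, with a star where the adjusted p was under 0.05. Stars fall on Cdk9, Supt5, Hexim1 and the internal region of Nelfe, and the column for offsets on mean abundance is pale for Cdk9 (-0.01).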

How the data were processed

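Accessible chromatin of 7 liver libraries was read from the counts that the authors deposited, whole read counts per library in 55680 consensus regions of GRCm38, without normalisation. Per the labels and the study's methods, the authors trimmed reads with cutadapt 1.13, aligned them with Bowtie2 2.4.1, removed low-quality alignments, PCR duplicates and mitochondrial reads, called peaks with MACS2 2.2.7, kept regions seen in at least 2 libraries and counted with featureCounts. A shift of reads for the Tn5 cut is not given in the sources used here. The counts hold no molecular identifiers, and 0 columns were left over after columns were matched to samples by name.

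Regions were annotated with GENCODE M21 (overlap of at least 1 bp). All 55680 regions were fitted with edgeR 4.0.16 in R 4.3.3 (TMM, quasi-likelihood, age as the only factor, all 7 libraries, no filter beyond a nonzero count), with Benjamini-Hochberg adjustment at 0.05 and intervals of 95%. The study used DESeq2 for its own comparison, and DESeq2 1.42.0 was an alternative here, beside limma 3.58.1 (voom). Log2 CPM used a prior count of 2. Further alternatives were other scalings, loess offsets (span 0.3) on abundance and on GC, filters, binomial thinning of every library to the lowest total, omission of each library, summing each of the 6 pairs of aged libraries, a replicate block, thresholds of 0.01 and 0.1, and other promoter and window definitions. The fit was tested on simulated counts of the aged against young comparison over 55680 regions. It recovered 91% of 200 regions changed 2-fold, with 4.71% of its calls false, and smaller changes were not simulated. The simulated libraries were independent, had the same dispersion in every region and no trend with level, and only well-covered regions were changed. These rates therefore need not hold for the deposited counts. Python 3.11.15 (pandas 2.3.3), minimap2 2.31 and matplotlib 3.10.9 served for tables, alignment of regions to GRCm38 and figures. Same-age libraries differed by more than sampling noise (chi-square per degree of freedom 2.47 to 6.10 over 9 pairs), so none was counted as 1 library deposited again. Libraries of the same animal could differ in this way too, and which aged libraries share an animal cannot be told from it.

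The members and lists were chosen with earlier results of these data known. Where a gene had several promoter regions, its most accessible region by mean log2 CPM stood for it. Text values cover every promoter region of the 9 genes. Of other regions near them, those past the threshold, without overlap between ages or among the 5 largest changes are named. Of the list of related genes, those past the threshold and the 3 highest and 3 lowest are named, and of all others the 3 that follow the mean of the 9 most closely. Counts per region limit the precision, from 6 to 3805 per library. The motifs searched were chosen after these promoter windows had been read.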

Additional observations from a re-analysis of the deposited data

Results flagged for a closer look

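Of 23 regions tested, the 10 promoter regions of the 9 genes, 6 other regions near them and 7 promoters of related elongation genes, 4 had 1 aged library that stood apart from the other aged ones, further than a gap test over 4 libraries allows at the 95% level. Chance flags about 1 in 20 groups. At the coding exon region of Supt5, aged replicate 4 had a log2 CPM of 2.99, against 1.41 to 1.58 in the other aged and 2.21 to 3.01 in the young libraries. In the intron upstream of Ccnt1, aged replicate 2 had 2.404, against 1.97 to 2.02 in the other aged and 2.63 to 2.99 in the young libraries. At the elongin promoters, aged replicate 2 was lowest, with a log2 CPM of 4.26 at Elob (other aged libraries 4.69 to 4.75) and 5.76 at Eloc (other aged libraries 6.13 to 6.19). Aged replicate 2 was the library in 3 of the 4 cases.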

How the results depend on the processing

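Among the 10 promoter regions of the 9 genes, 0 passed in edgeR (6.54% of all promoter regions). The count was 1 under DESeq2 (12.2%), limma voom (10.8%), total counts (5.23%), offsets on mean abundance (0.823%) and aged 2 and 4 summed (10.7%), 3 with offsets on GC content (16.5%) and 2 at a threshold of 0.1 (16.6%). Leaving out 1 library gave 0 to 1, where 0.233% to 7.54% of all promoter regions passed. Over the 27 regions near the genes the counts, with the share of all regions, were 0 in edgeR (5.74%), 2 in DESeq2 (8.42%), 1 in limma voom (8.23%), with total counts (6.24%), with offsets on mean abundance (1.25%) and with aged 2 and 4 summed (8.52%), 4 with offsets on GC content (10.1%) and at a threshold of 0.1 (12.8%), and 0 to 1 without 1 library (0.338% to 7.60%). The numbers of young and aged replicates did not pair the libraries (correlations of deviations -0.12, 0.06 and 0.03). With the replicate block 1 of the 27 regions passed (7.32% of all regions), the coding exon of Supt5 (log2 fold change -1.33). No young library shares its number with aged replicate 4, so that library adds nothing to the age difference in this fit. The value at the Supt5 exon is thus close to the -1.35 found without aged replicate 4. With the block 0 of the 10 promoter regions passed (6.58% of all promoter regions), and the median over the 9 promoters was 0.20.

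For the list of related genes the count of 1 of 52 became 7 in DESeq2 (12.2% of all promoter regions) and at a threshold of 0.1 (16.6%), 3 in limma voom (10.8%) and with DESeq2 size factors (8.58%), 10 with offsets on GC content (16.5%) and 5 with aged 2 and 4 summed (10.7%). It was 0 with total counts (5.23%), offsets on mean abundance (0.823%), the filters (2.58% and 6.34%), thinning (4.25%), a threshold of 0.01 (0.182%), the replicate block (6.58%) and the aged pairs 1 and 3, 1 and 4, 2 and 3, and 3 and 4 (1.39% to 5.24%). Without 1 library it was 0 to 3 (3 without aged replicate 2, 7.11%).

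The median over the 9 promoters was 0.20, ran from 0.15 to 0.25 without 1 library and came to -0.061 with offsets on mean abundance and 0.083 with total counts. Those offsets also turned the direction at Supt4a (-0.061), Nelfa (-0.080), the 5′ region of Nelfe (-0.022), Cdk9 (-0.014), Hexim1 (-0.068) and the Fpgs promoter (-0.13). Nelfcd ran from -0.184 to 0.0083 without 1 library, positive without young replicate 1, and was 0.028 after thinning. Total counts shifted the median of all regions by -0.12, and 7 of 9 promoters were positive, with Supt5 at 0.17, Supt4a at 0.03, Nelfa at 0.02, Nelfb at 0.16, the 5′ region of Nelfe at 0.083, Cdk9 at 0.26 and Hexim1 at 0.15. The filter of 10 counts in every library removed the exon region of Nelfcd. The cause of these changes was not tested.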
